A study of Mus musculus with 4 samples.

Results

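The 10 genes described here are 7 immunoglobulin heavy chain constant genes (Ighm, Ighd, Igha, Ighg1, Ighg2b, Ighg2c and Ighg3), the light chain constant genes Igkc and Iglc2, and Jchain. They were chosen by symbol and are 10 of the 32285 genes counted in the bone marrow of 5TMM mice, a multiple myeloma model, and all 10 were found. In this model 5TGM1-luc cells, a mouse myeloma line, were injected intravenously into C57BL/KawRij mice at 6 weeks of age. After 3 weeks, 2 mice were given vehicle and 2 mice were given 10 mg/kg of purinostat mesylate (PM), an inhibitor of class I and IIb histone deacetylases, and marrow was taken 24 h later. Red cells were lysed and 1 droplet-based 3′ library was made per mouse, and all 4 mice carried the myeloma line. The 4 libraries are called vehicle 1, vehicle 2, PM 1 and PM 2, and values of all 4 are given in this order.

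An antibody is built of paired heavy and light chains. Developing B cells first make a mu heavy chain from Ighm and then a kappa light chain with Igkc or a lambda light chain with an Iglc gene. Naive B cells splice the same long transcript to Ighm or Ighd and carry both IgM and IgD on the surface. Class switch recombination later replaces the constant part with Ighg1, Ighg2b, Ighg2c, Ighg3 or Igha, and plasma cells in the marrow secrete the product in large amounts. Jchain encodes the joining chain, which links IgM and IgA monomers into polymers. Plasma and myeloma cells are packed with these transcripts, and RNA released from broken cells can reach the droplets of cells that do not make antibody. Immunoglobulin UMIs in such cells are called free RNA here, and their source was not tested.

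After filtering, 9261, 7826, 13387 and 9269 cells remained, with 69190194 to 108776232 UMIs (unique molecular identifiers, each counting 1 captured transcript) per library and a median of 4717 to 6067 UMIs per cell. Immunoglobulin genes were left out when cells were clustered, but only after each cell had been scaled to its total UMIs, these genes included. The genes described here could therefore still act on the clusters through that scaling, which was not tested. Each class name stands for cells like that type by its marker transcripts. The classes held 230 plasma cells, 169 myeloma cells, 1596 mature B cells, 444 small pre-B and immature B cells, 347 pro-B and large pre-B cells, 415 plasmacytoid dendritic cells (pDC) and 18908 neutrophils, while 6040 of 39743 cells stayed without a class. Myeloma cells were those of a cluster led by Rhox5, a homeobox gene, with at least 1 Rhox5 UMI. Their median was 17, 21, 22 and 15 Rhox5 UMIs. A rule kept cells with a Rhox5 UMI out of the plasma cells, and 0 cells of the clusters named plasma cell had one. Clusters of 36 and 19 cells that scored nearest to plasma cells but stayed without a class had Rhox5 in 19.4% and 5.26% of cells. Pairs of libraries shared 18 to 39 cell barcodes, at most 0.421% of a library. Called doublets made up 6.26% to 10.7% of the cells of a library and 14.3% of the plasma cells.

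The secreted forms of mu and alpha chains end in a tail that the gamma chains lack, and the joining chain binds through a cysteine next to its end. The bases that only the secreted form codes for are shown here because Jchain differed between cells led by different heavy chains. They come from GENCODE transcripts on build GRCm38, are written 5′ to 3′ on the minus strand of chromosome 12, and the capitals mark the codon of that cysteine.
Ighm, 59 bases, chr12:113420870-113420928: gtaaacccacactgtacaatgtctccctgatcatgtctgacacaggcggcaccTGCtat
Igha, 59 bases, chr12:113258771-113258829: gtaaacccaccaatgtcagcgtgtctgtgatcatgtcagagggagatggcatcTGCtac
In each of the 4 Ighg genes only 5 bases are particular to the secreted form, and they code for no such tail. The libraries read transcripts near their 3′ ends and give 1 count per gene, so secreted and membrane forms, whose 3′ ends lie 1960 to 3872 bases apart in the heavy chain genes, were counted together.

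Ighg2b was the heavy chain gene of the myeloma cells and 1 of the 3 gamma genes that led plasma cells, so it matters whether their reads can be told apart. The last 60 coding bases of the secreted forms, again on the minus strand of chromosome 12, are given for the gamma genes that plasma cells used, with capitals where a base differs from Ighg2b.
Ighg2b, chr12:113306392-113306451: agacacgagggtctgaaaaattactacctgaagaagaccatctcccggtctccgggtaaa
Ighg2c, chr12:113287392-113287451: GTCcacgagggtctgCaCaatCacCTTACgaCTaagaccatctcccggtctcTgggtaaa
Ighg1, chr12:113328979-113329038: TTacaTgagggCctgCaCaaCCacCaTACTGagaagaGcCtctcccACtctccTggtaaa
Ighg2c differed from Ighg2b at 14 and Ighg1 at 19 of these bases. Over their last 320 coding bases the 4 gamma genes were 64.7% to 76.6% identical to each other, and no pair shared a run of 90 bases. The lambda genes were closer. Iglc2 and Iglc3, on the minus strand of chromosome 16, differed at 11 of 314 coding bases (96.5% identical) and at 1 of the last 60, marked in capitals.
Iglc2, chr16:19198539-19198598: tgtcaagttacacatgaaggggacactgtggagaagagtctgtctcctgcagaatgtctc
Iglc3, chr16:19065368-19065427: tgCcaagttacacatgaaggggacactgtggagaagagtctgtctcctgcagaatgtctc
They too shared no run of 90 bases, but shorter reads or reads of shared stretches could go to either copy, so their counts are less certain than those of the gamma genes.

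The heavy chain genes lie in a row on the minus strand of chromosome 12, from Igha (113254830 to 113260236) through Ighg2c, Ighg2b, Ighg1, Ighg3 and Ighd to Ighm (113418558 to 113422730). Igkc lies on chromosome 6 (70726435 to 70726966, plus strand), Iglc2 on chromosome 16 (19198396 to 19200351, minus strand) and Jchain on chromosome 5 (88519809 to 88527891, minus strand). Jchain is annotated as protein coding and the other 9 as immunoglobulin constant genes.

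Immunoglobulin genes of all kinds, variable genes and Jchain included, took 59.2% ± 4.73 of the UMIs of plasma cells (SD, n = 4 mice, as for all values given with ± below unless another n is named), 4.80% ± 0.524 of those of myeloma cells and 1.70% ± 0.151 of those of mature B cells. In pDC the share was 0.291% ± 0.0170 and in neutrophils 0.0389% ± 0.0141. Of all UMIs of the 10 genes, 85.4%, 84.9%, 66.8% and 80.9% lay in the plasma cells, which were at most 230 of 39743 cells, and 5.08%, 6.55%, 17.1% and 7.51% in the myeloma cells. Levels below are UMIs per 10000 UMIs of a class and mouse. Classes were set by clustering the same cells, so levels between classes are described without a test, and levels of different genes are not compared by length. A gene that fills a large part of a cell's transcripts lowers the level of all others there.

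**Figure D1:**
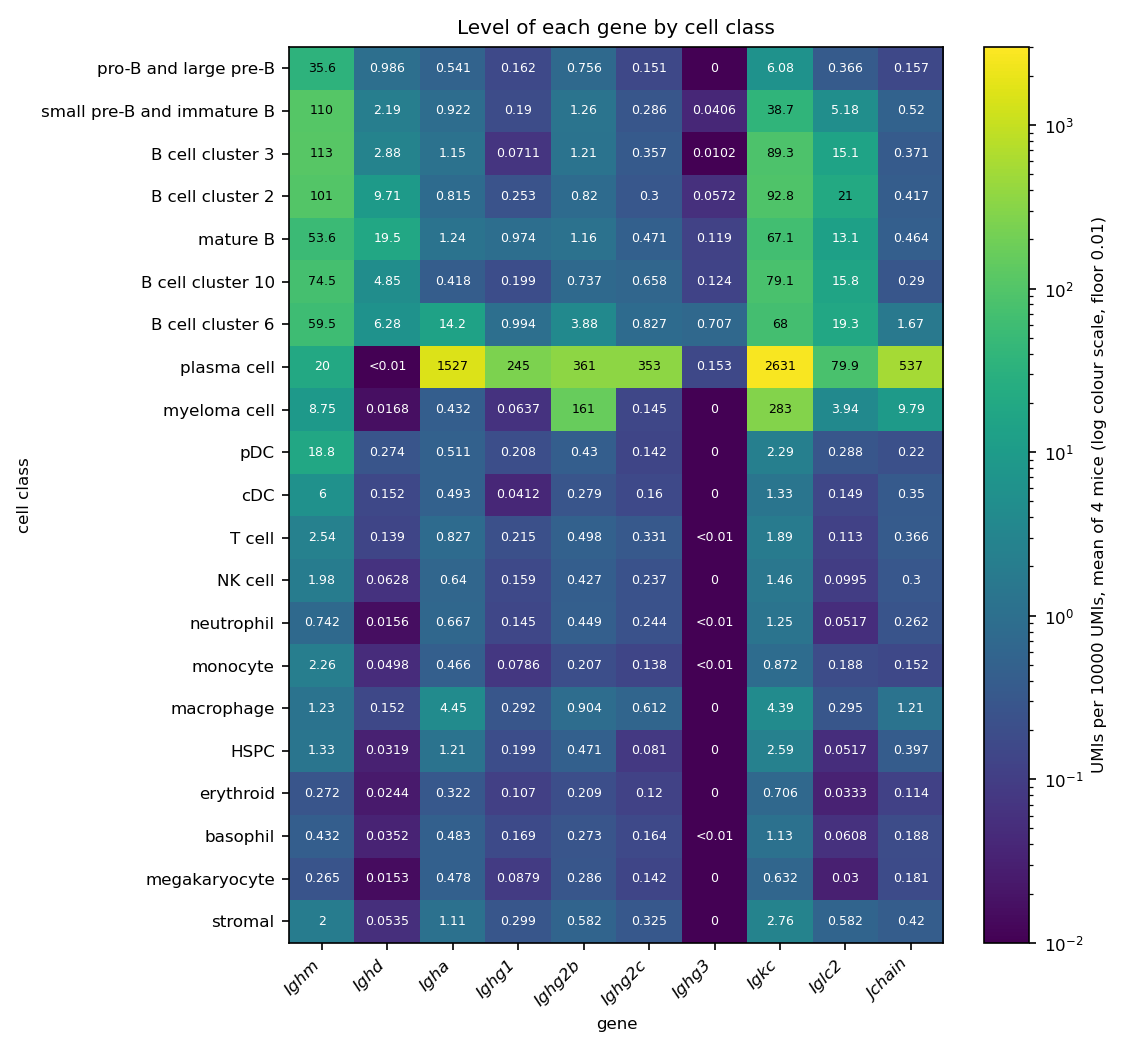
UMIs of each gene (columns) per 10000 UMIs of each cell class (rows), as the mean of the 4 mice, on a logarithmic colour scale that starts at 0.01. Igkc, Igha, Jchain and the Ighg genes were high in plasma cells, Ighg2b and Igkc in myeloma cells, and Ighm and Ighd in the B cell classes, while other classes held low levels of nearly all genes.

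In plasma cells the kappa gene Igkc was the most abundant of the 10, at 2599, 2546, 2674 and 2703 per 10000. On this scale it was steady, at 2631 ± 71.6. Per 10000 UMIs outside the immunoglobulin genes it was at 6503 ± 700, from 5690 to 7251.5. Per 10000 of all UMIs the heavy chain genes varied between the mice. Igha, the constant gene of IgA, was at 1282, 2157, 1382 and 1287, highest in vehicle 2, and the other 3 mice lay close together. Ighg2b was at 477, 261, 374 and 329. Ighg2c, which C57BL strains carry in place of Ighg2a, was at 371, 160, 162 and 717, and Ighg1 at 376, 126, 101 and 377. For these last genes 1 vehicle and 1 PM mouse were high and 1 of each low, so the groups overlapped. Ighg3 was nearly absent, at 0.153 ± 0.102, and 1 UMI of Ighd was found in all 230 plasma cells.

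Single plasma cells used 1 heavy chain gene. In the 213 plasma cells with at least 10 heavy chain UMIs, the leading gene held a median of 99.9% of them. Igha led in 22 of 37, 41 of 51, 49 of 78 and 27 of 47 cells, which is 59.5%, 80.4%, 62.8% and 57.4%, or 65.3% of all (95% Clopper-Pearson interval 58.5 to 71.6, for counting error only). Ighg2b led in 35 cells, Ighg2c in 24, Ighg1 in 13 and Ighm in 2. Without called doublets 193 cells remained, of which Igha led 138, Ighg2b 33, Ighg2c 15, Ighg1 7 and Ighm 0, so that the share led by Ighg1 was 3.63% instead of 6.10%. No cell was led by Ighd or Ighg3. A count of 0 in 213 leaves room for at most 1.72% (95% Clopper-Pearson). The share led by Igha was 9.79 percentage points lower in the PM mice than in the vehicle mice, 60.1% ± 3.80 against 69.9% ± 14.8 (SD, n = 2), which was less than the spread between the vehicle mice (exact two-sided permutation test, p = 0.667, and 2 against 2 mice cannot give a p below 0.333). Without called doublets the difference was −5.79 points, and without vehicle 2 it was 0.674 points in the other direction. The high Ighg2c level of PM 2 went with 10 of 47 cells led by Ighg2c, against 3 to 6 cells in the other mice. A further 17 cells of the class had fewer than 10 heavy chain UMIs, and a median of 0.0922% of their UMIs came from immunoglobulin genes.

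**Figure D2:**
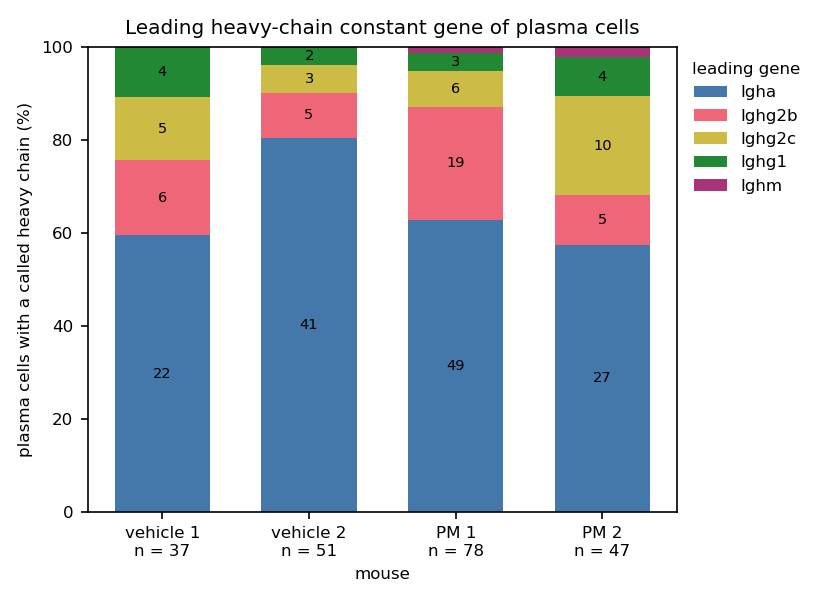
Percent of the plasma cells with at least 10 heavy chain UMIs (vertical axis) that were led by each heavy chain constant gene, for each mouse (bars); numbers in the bars are cells, and the top segments of both PM bars are 1 Ighm-led cell each. Igha led in 57.4% to 80.4% of the cells of a mouse.

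Light chains were mostly kappa. Of 213 plasma cells, 10 drew at least 90% of their light chain UMIs from the Iglc genes and 2 reached this share with neither kind, and all others drew it from Igkc. Iglc2 was at 134, 20.6, 21.3 and 144 per 10000 in plasma cells, again high in 1 mouse of each group. Few cells carried these levels: a single cell held 55.1% of the Iglc2 UMIs of plasma cells of vehicle 1 and another 87.2% of those of PM 2.

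Ighm in plasma cells was at 1.40, 1.29, 24.5 and 52.7 per 10000, higher in both PM mice. This level came from a single cell in each of them. In PM 1 the leading cell held 2730 of 2989 Ighm UMIs and in PM 2 it held 4992 of 5106. Both were called as doublets, and no Ighm-led plasma cell was left without them. The median plasma cell had 0 Ighm UMIs in every mouse.

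Jchain, at 452, 674, 529 and 496 per 10000 in plasma cells, followed the heavy chain gene of the cell. Cells led by Igha had 674, 737, 735 and 766 Jchain UMIs per 10000, and cells led by an Ighg gene 250, 439, 327 and 305. Groups did not overlap: the lowest Igha value lay above the highest Ighg value. Means were 728 ± 38.6 and 330 ± 79.4, higher in the Igha-led cells in 4 of 4 mice, with a difference of 398 ± 70.1 (exact sign-flip test over mice, p = 0.125, the smallest that 4 mice can give). Per 1000 heavy chain UMIs the means were 265 ± 17.6 and 146 ± 42.6, again higher in 4 of 4 mice (exact sign-flip test, p = 0.125). All gamma genes lay below Igha: over all mice Jchain was at 359 per 10000 in cells led by Ighg2b, 307 with Ighg2c and 237 with Ighg1, against 729 with Igha. Cells led by Igha also had more antibody transcripts, at a median of 64.0% immunoglobulin UMIs against 57.9% in Ighg-led cells, and the gamma-led cells were deeper, at a median of 22055 UMIs against 16496. Called doublets were 17 of the 72 gamma-led cells (23.6%) and 1 of the 139 Igha-led cells. Without them Jchain was at 728 ± 39.5 per 10000 in Igha-led and 381 ± 56.1 in Ighg-led cells, a difference of 348 ± 48.4 and higher with Igha in 4 of 4 mice. Per 1000 heavy chain UMIs the difference was then 86.7 ± 40.0 instead of 119 ± 26.8, in the same direction in 4 of 4 mice, and the Ighg-led cells of PM 1, at 260, lay above the Igha-led cells of PM 2, at 249.6, and of vehicle 1.

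**Figure D3:**
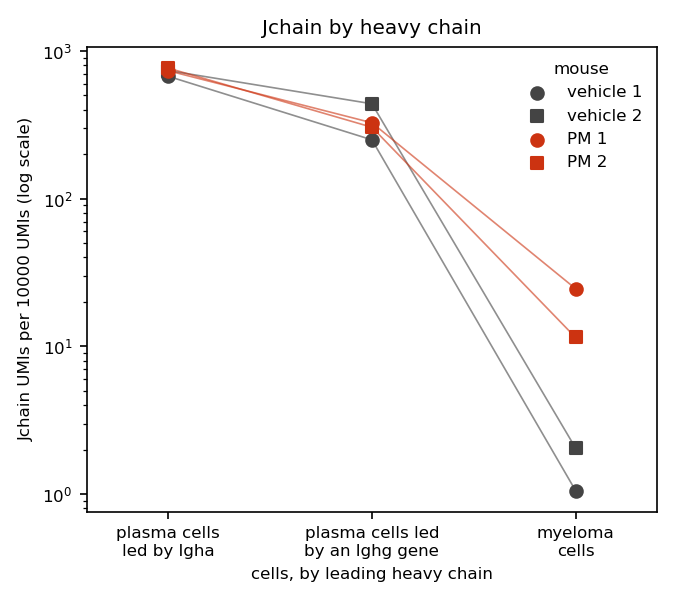
Jchain UMIs per 10000 UMIs (vertical axis, logarithmic) in plasma cells led by Igha, in plasma cells led by an Ighg gene and in myeloma cells, with 1 point and line per mouse (black for vehicle, red for PM). Each mouse falls from the Igha-led to the Ighg-led cells, and the myeloma cells lie below both, from 1.05 in vehicle 1 to 24.6 in PM 1.

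Myeloma cells were led by a single heavy chain and a single light chain gene. Ighg2b led in 168 of 168 cells with at least 10 heavy chain UMIs (95% Clopper-Pearson interval 97.8 to 100). Of 169 cells, 154 drew at least 90% of their light chain UMIs from Igkc, 0 from Iglc genes and 15 lay between. Igkv10-96 was the leading light chain variable gene in 157 of the 160 cells with a UMI of such a gene. The 5TGM1 line is known to make IgG2b kappa. Ighg2b was at 178, 125, 170 and 170 per 10000 and Igkc at 297, 255, 301 and 281, lowest in vehicle 2 for both. Per cell this was a median of 486, 553, 548 and 593.5 Ighg2b UMIs and 843, 1051, 978 and 959 Igkc UMIs. Per 10000 UMIs, plasma cells were above myeloma cells 1.94- to 2.68-fold in Ighg2b, the leading gene of 35 of the 213, and 8.75- to 10.0-fold in Igkc. Myeloma cells were deeper, at a median of 34594 UMIs against 17129.5, so the folds per cell differ from these. The median plasma cell had 5206.5, 5143, 3574 and 4234 Igkc UMIs and 0, 0, 1 and 0 Ighg2b UMIs.

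Among the other members Igha and Ighg1 lay below their levels per 10000 UMIs in neutrophils of the same mouse, which stand for the free RNA. Myeloma cells were deeper, at a median of 34594 UMIs against 4587, and levels per cell were not compared. Ighg2c lay above neutrophils in vehicle 2, at 0.0486 against 0.0324 per 10000, and below them in the other mice. Ighg1 was at 0.109, 0.0486, 0.0371 and 0.0605 per 10000 in myeloma cells and at 0.273, 0.0957, 0.0647 and 0.146 in neutrophils. Igha was at 0.450, 0.308, 0.442 and 0.527 per 10000, between 0.451 and 0.975 times its level in neutrophils. Ighm lay above, at 12.8, 5.90, 7.90 and 8.40 per 10000, which was 8.72 to 22.6 times the level in neutrophils of the same mouse, with a median of 29, 20, 21 and 19.5 UMIs per cell. No cell had Ighm as its leading gene. Iglc2, at 3.94 ± 1.88, was also above neutrophils, and Ighg3 had no UMI in the 169 cells.

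Jchain in myeloma cells was at 1.05, 2.05, 24.6 and 11.5 per 10000, so that both PM mice lay above both vehicle mice. The median cell had 1, 1, 60 and 11.5 Jchain UMIs, with ranges of 0 to 42, 0 to 109, 0 to 353 and 0 to 161. At least 10 UMIs were found in 1 of 21, 5 of 27, 74 of 91 and 15 of 30 cells (4.76%, 18.5%, 81.3% and 50%), while the level in neutrophils would give a cell of this depth 0.682 to 1.37 UMIs. The top cell of each mouse held 61.8%, 43.1%, 4.44% and 12.1% of its Jchain UMIs, so few cells carried the vehicle values. There were 2.34, 6.66, 55.6 and 21.8 Jchain UMIs per Igha UMI in myeloma cells, against 0.332 to 0.441 in neutrophils. In the edgeR quasi-likelihood test of PM against vehicle, the log2 fold change was 3.49 ± 0.68 (SE) and did not pass the threshold (Benjamini-Hochberg adjusted p = 0.388, edgeR). DESeq2 gave nearly the same change, 3.51, with an adjusted p of 0.0122 (Benjamini-Hochberg), and so the call depended on the tool. Over 13 alternatives the change was 2.74 to 4.12, the adjusted p 7.81e-38 to 0.501 and Jchain was called in 7 of them, among them each fit without 1 mouse. Neutrophil transcripts in the myeloma cells were highest in PM 1, with a sum of 10 such genes at 12.5 and 40.2 per 10000 with vehicle and 141 and 16.4 with PM, and their part in the Jchain values was not tested.

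**Figure D4:**
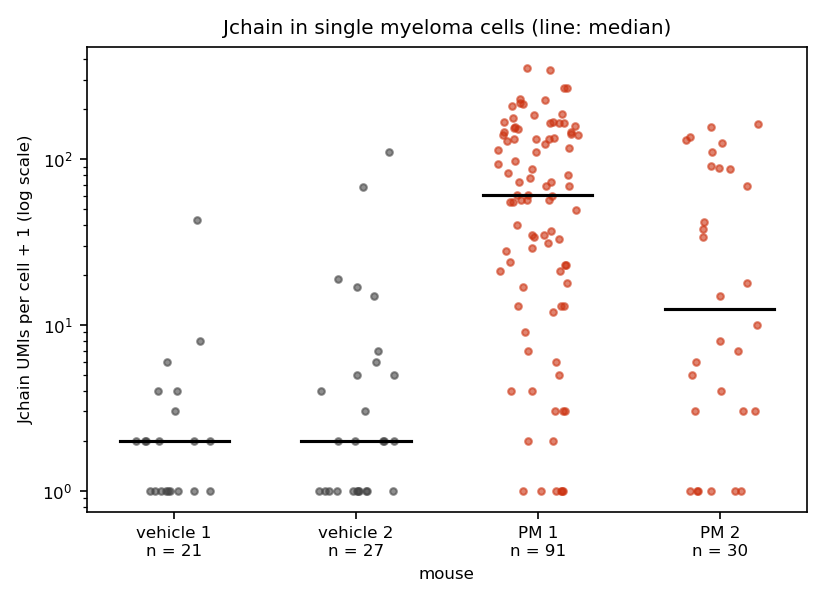
Jchain UMIs per myeloma cell plus 1 (vertical axis, logarithmic) by mouse, with 1 point per cell and a line at the median. The median is 1 UMI in each vehicle mouse, 60 in PM 1 and 11.5 in PM 2, and cells without a Jchain UMI are present in all 4 mice.

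Along the B cell lineage Ighm was at 35.6 ± 3.43 per 10000 in pro-B and large pre-B cells, 110 ± 13.8 in small pre-B and immature B cells and 53.6 ± 5.69 in mature B cells. A cluster of 152 B cells without a stage name held 113 ± 20.2, with a range of 87.6 to 137 that overlapped that of the small pre-B cells. The range of Ighm in mature B cells was 45.9 to 58.1, above that of pro-B cells, 30.8 to 38.8, and below that of small pre-B cells, 98.4 to 126. Depth differed between the 3 classes, with medians of 6011, 2298 and 2176 UMIs. The median cell had 24, 23 and 12 Ighm UMIs, so the levels above pro-B cells were not seen per cell. For Igkc the median cell had 2, 6 and 15 UMIs. Ighd was at 0.986 ± 0.364 and 2.19 ± 1.25 in the 2 earlier classes and at 19.5 ± 0.943 in mature B cells, and its values of 18.7 to 20.8 in mature B cells lay above all values of the earlier classes. The 2 earlier classes overlapped in Ighd. Igkc was at 6.08 ± 2.08, 38.7 ± 2.10 and 67.1 ± 8.33 in the 3 classes, with no overlap. A group of 582 B cells that no stage list named lay between the last 2 classes in Ighd, at 9.71, and held Ighm at 101 and Igkc at 92.8.

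Most mature B cells carried UMIs of both Ighm and Ighd, 1507 of 1596 or 94.4%, and 1 cell had Ighd alone. There were 33.9 to 40.8 Ighd UMIs per 100 Ighm UMIs in mature B cells and 0.719 to 3.89 in the earlier classes. Ighm led in 1312 and Ighd in 79 of the 1413 mature B cells with at least 10 heavy chain UMIs. Switched cells were counted as those with at least 3 UMIs of a switched gene and more of it than of Ighm and Ighd together. They were 26 of all 1596 mature B cells. The same rule counted 579 of 18908 neutrophils, where the members stand for free RNA, so passing it does not by itself show a switched cell. Igha in mature B cells was at 1.24 ± 0.203 per 10000, against 0.667 ± 0.209 in neutrophils. Median depths were 2176 and 4587 UMIs, and levels per cell were not compared, so Igha above the free RNA is not shown. In a cluster of 94 B cells without a stage name, 18 were switched cells by that rule, and the Igha level of the cluster was 14.2 ± 10.4. Thinned to 1000 UMIs per cell, 97.1% of mature B cells had an Ighm UMI and 79.8% an Ighd UMI, against 7.53% of neutrophils for Ighm.

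Lambda UMIs in mature B cells were spread over cells that also held kappa. Of 1454 cells with at least 10 light chain UMIs, 293 drew at least 90% from Igkc, 24 at least 90% from Iglc genes and 1137 lay between. Iglc2 was at 13.1 ± 1.05 per 10000 in mature B cells and Igkc at 67.1, while neutrophils held 0.0517 ± 0.0498 of Iglc2. In mature B cells the top cell held 1.27% to 7.92% of the Iglc2 UMIs of a mouse. Small pre-B and immature B cells differed, with 32 of 239 cells (13.4%) lambda-dominant, of which 29 came from vehicle 2, the mouse with 305 of the 444 cells. Lambda-dominant cells made up 3 of 23, 29 of 171, 0 of 22 and 0 of 23 cells in the 4 mice.

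Plasmacytoid dendritic cells make type I interferon and are known to share transcription factors with B cells. Ighm in pDC was at 18.3, 19.8, 17.6 and 19.4 per 10000, 20.2 to 32.3 times the level in neutrophils of the same mouse, and 98.9% ± 1.32 of pDC had an Ighm UMI, against 26.9% ± 2.68 of neutrophils, at median depths of 5618 and 4587 UMIs. With each cell thinned to 1000 UMIs the shares were 84.4% ± 4.22 and 7.53% ± 1.69. Igha (0.511 ± 0.125 per 10000) and Jchain (0.220 ± 0.0986), most of whose UMIs lay in plasma cells, were no higher than in neutrophils on average. Igkc was at 2.29 ± 0.347, which was 1.24 to 2.76 times its level in neutrophils of the same mouse. Ighd in pDC was at 0.237, 0.236, 0.366 and 0.255 per 10000, against 0.00307, 0.00836, 0.0329 and 0.0182 in neutrophils. A list of 10 B cell markers summed to 4.60, 5.68, 5.53 and 6.33 per 10000 in pDC. In neutrophils it summed to 0.0276, 0.0826, 0.148 and 0.106, and the part of B cell transcripts in the pDC levels was not tested. Iglc3, a lambda constant gene, was found in 63.1% to 74.0% of pDC, with 195, 411, 333 and 412 UMIs, while Iglc2 had 6, 5, 19 and 35 there. Its level in pDC was 4.63 to 7.5 per 10000, against 0.00375 to 0.0188 in neutrophils. Conventional dendritic cells held Ighm at 6.0 ± 0.903 per 10000, T cells at 2.54 ± 0.779 and monocytes at 2.26 ± 0.549.

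In cells that do not make antibody, the 10 genes together took 3.29, 2.63, 5.87 and 3.52 UMIs per 10000 in neutrophils, and erythroid cells had 1.91 ± 0.456. Progenitor cells (HSPC) had 6.36 ± 4.34, and 2.34 ± 0.660 without called doublets. PM 1, which had the most plasma and myeloma cells, had the highest value in neutrophils. The other mice did not follow this order. Vehicle 2 had the lowest value, with 53 plasma and 27 myeloma cells, against 42 and 21 in vehicle 1 and 47 and 30 in PM 2. Neutrophils of PM 1 were also the shallowest, with medians of 5303.5, 5441.5, 3916 and 4372.5 UMIs in the 4 libraries. The mix of genes in neutrophils was nearest to that in the plasma and myeloma cells of the same library in 3 of 4 libraries, and to that in the plasma cells alone in 1 of 4. In T cells it was nearest to that in plasma and myeloma cells of the same library in 2 of 4. Of the summed UMIs of Igha, the 4 Ighg genes and Jchain, Ighg2c took 19.7%, 2.99%, 7.35% and 26.1% in neutrophils and 12.0%, 4.54%, 5.29% and 21.0% in plasma and myeloma cells. Ighg1 took 16.2%, 8.82%, 2.38% and 9.31% beside 12.2%, 3.56%, 3.31% and 11.0%. Ighg2b, shared by both cell types, was highest in PM 1 in both, at 39.4% beside 26.9%. The 4 libraries had the same order in neutrophils as in plasma and myeloma cells for Ighg2c and Ighg1, and another order for Ighg2b and Igha. Each share in neutrophils rests on 2076 to 7113 UMIs.

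**Figure D5:**
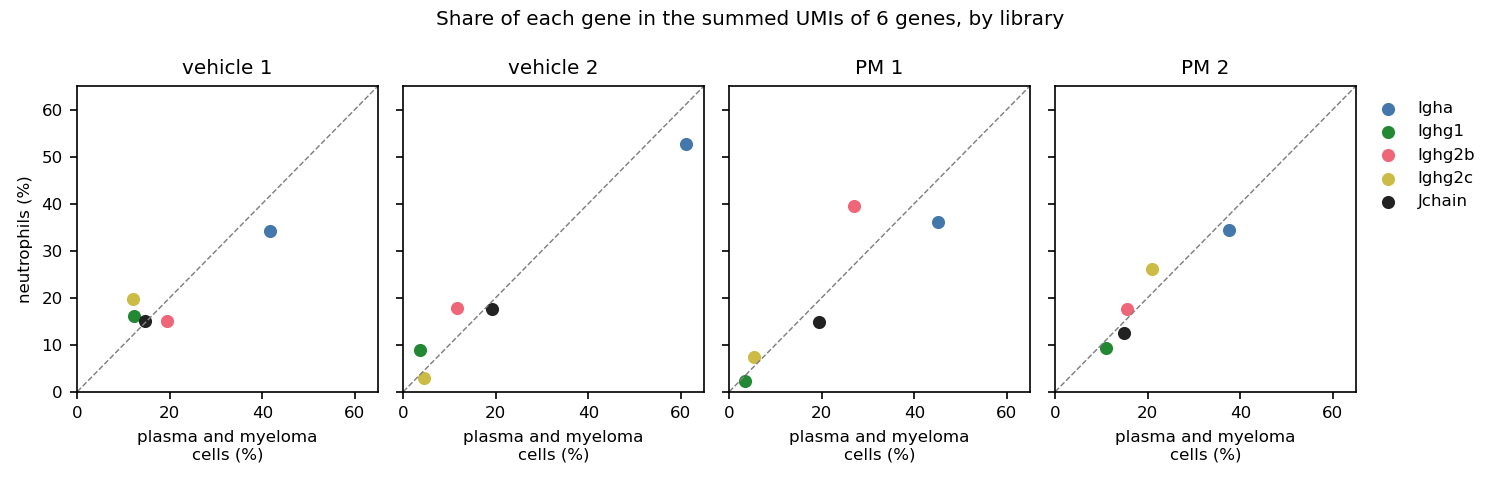
Share of 5 genes in the summed UMIs of Igha, the Ighg genes and Jchain, in percent, in neutrophils (vertical axis) against plasma and myeloma cells (horizontal axis), with 1 panel per library, 1 point per gene and a dashed line of equal shares; Ighg3, below 0.2%, is left out. Igha is the highest point of 3 panels, and Ighg2b is the highest in neutrophils of PM 1, at 39.4%.

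The effect of PM was tested on UMIs summed per mouse and class, with edgeR's quasi-likelihood test over all genes, and called genes had to change by more than 0.5 on the log2 scale in either direction at an adjusted p (Benjamini-Hochberg) below 0.05. Positive changes stand for higher levels after PM. In plasma cells 0 of the 9 tested members were called, beside 0% of all 5827 tested genes, while 236 genes had an unadjusted p under 0.05 and DESeq2 called 7 genes. Ighm had the largest change of the members, 4.82 ± 0.52 (SE), which did not pass (adjusted p = 0.0827, edgeR). It rests on the 2 Ighm-led cells described above: without called doublets it was 0.23 (adjusted p = 1.00, within a range of 5.42e-47 to 1.00 over 13 alternatives, 5 of which called it). Changes of the abundant genes were −0.01 ± 0.42 for Igkc, −0.47 ± 0.46 for Igha, −0.24 ± 0.40 for Jchain and −0.12 ± 0.37 for Ighg2b, with standard errors too large to tell a change of this size from none. Neutrophil transcripts in the plasma cells summed to 155, 64.4, 447 and 61.3 per 10000, and their part was not tested.

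In myeloma cells 0 of 7 tested members were called, beside 0.347% of all genes, with 700 genes at an unadjusted p under 0.05 and 9 genes called by DESeq2, of which Jchain was 1. The antibody genes of the clone had log2 fold changes of 0.14 ± 0.24 (SE) for Ighg2b and 0.05 ± 0.24 for Igkc. Ighm was at −0.21 ± 0.28 and Igha at 0.36 ± 0.26. In mature B cells 0 of 10 members were called, beside 1.55% of all genes (995 genes at an unadjusted p under 0.05 with edgeR, and 9 called by DESeq2). Changes were 0.21 ± 0.13 for Ighm, 0.08 ± 0.13 for Ighd, 0.29 ± 0.13 for Igkc and −0.04 ± 0.13 for Iglc2, so the standard errors leave room for modest changes only. Igkc was at 60.3 and 59.6 per 10000 with vehicle and 75.2 and 73.4 with PM, so the groups did not overlap though it was not called. The mature B cells of the groups came from clusters in different shares, with 89, 210, 113 and 141 cells in a first cluster, 22, 36, 672 and 213 in a second and 0, 3, 70 and 27 in the third.

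In small pre-B and immature B cells 2 of 6 tested members rose, beside 2.55% of all genes called higher and 3.57% called in either direction. Ighg2b was at 0.354 and 0.419 per 10000 with vehicle and 2.64 and 1.63 with PM, with a log2 fold change of 2.43 ± 0.36 (SE, adjusted p = 2.57e-08, edgeR). The groups did not overlap, and at least 1 UMI was found in 7.5%, 7.87%, 39.2% and 25% of the cells, with at most 5 in any cell. Free Ighg2b in neutrophils was at 0.253, 0.193, 1.07 and 0.278 per 10000, also highest in PM 1, below the small pre-B value of each mouse. The small pre-B cells were shallower, at a median of 2298 UMIs against 4587 in neutrophils. Free RNA takes a larger share of a shallower cell if droplets receive like amounts, and levels per cell were not compared. Ighd was at 0.707 and 1.76 with vehicle and 3.63 and 2.68 with PM (log2 fold change 1.07 ± 0.27, SE, adjusted p = 0.00514, edgeR). Without vehicle 1 no gene of this class passed, and without PM 1 neither Ighg2b (2.07, adjusted p = 0.101, edgeR) nor Ighd (0.85, adjusted p = 0.300) was called. The Ighd call was also lost with DESeq2 (1.27, adjusted p = 0.666) and without a filter on low counts (0.99, adjusted p = 0.0871, edgeR). Ighm, at 98.4, 98.4, 126 and 117, was at 0.39 ± 0.13 (adjusted p = 0.0667, edgeR).

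The lambda genes outside the 10 fell in the same class. Iglc3 was at 6.48 and 9.74 per 10000 with vehicle and 0.742 and 1.38 with PM, a log2 fold change of −2.93 ± 0.29 (SE, adjusted p = 2.02e-16, edgeR), with a UMI in 45%, 55.1%, 9.80% and 16.7% of the cells. Iglc1 was at 5.54, 7.30, 2.56 and 3.09 (−1.17 ± 0.24, SE, adjusted p = 0.000333, edgeR), and Iglc2, at 3.77, 8.13, 3.22 and 5.61, was not called (−0.52 ± 0.26, adjusted p = 0.356). The Iglc1 call was lost without vehicle 2 (−0.84, adjusted p = 0.441, edgeR), at a finer clustering (−0.59, adjusted p = 0.182, edgeR) and with DESeq2 (−1.14, adjusted p = 0.179), and both Iglc1 and Iglc3 were lost without vehicle 1. Neutrophil transcripts summed to 28.2, 26.8, 51.0 and 25.5 per 10000 in these cells, and T cell transcripts (Cd3d, Cd3e, Cd3g, Trac and Trbc2) were all at 0.

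In pro-B and large pre-B cells 2 of 9 tested members were called higher, beside 1.8% of all genes called higher and 3.49% called in either direction. Iglc2 had 0, 1, 50 and 67 UMIs, with a log2 fold change of 6.23 ± 0.68 (SE, adjusted p = 4.48e-05, edgeR). A single cell held 41 of the 50 UMIs of PM 1 and another 30 of the 67 of PM 2, and DESeq2 gave neither Iglc2 nor Ighg2b an adjusted p. Iglc3 had 0, 8, 67 and 33 UMIs (3.23 ± 0.49, SE, adjusted p = 0.00112, edgeR), 47 of the 67 in a single cell. Ighg2b was at 0.559, 0.457, 1.04 and 0.966 per 10000 (1.11 ± 0.28, SE, adjusted p = 0.0326, edgeR), and in PM 1 this was no higher than the 1.07 of neutrophils. Its call was lost without vehicle 1, vehicle 2 or PM 1 (adjusted p = 0.0991, 0.244 and 0.115, edgeR) and without called doublets (adjusted p = 0.0520, edgeR). Ighm was at −0.12 ± 0.19 and Igkc at −0.47 ± 0.26, and neither was called. Erythroid transcripts in these cells summed to 0.671, 6.48, 0.792 and 22 per 10000, and the log2 fold changes of this list were positive for 4 of 4 genes, with 1.45 as their median. Neutrophil transcripts summed to 16.9, 12.8, 34.5 and 12.1. No gene of either list was at 0, and their part was not tested.

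In pDC 1 of 7 tested members was called higher, beside 0.915% of all genes called higher and 1.02% called in either direction. This was Iglc2, with 6, 5, 19 and 35 UMIs (2.19 ± 0.48, SE, adjusted p = 0.0145, edgeR), and it was not called without vehicle 2 (1.65, adjusted p = 0.203) or without PM 2 (1.58, adjusted p = 0.371, edgeR), nor with DESeq2 (2.18, adjusted p = 0.550). Ighm, the abundant member of pDC, was at −0.08 ± 0.14. The pDC of the 2 groups lay largely in different clusters, with 47, 60, 2 and 11 cells in a first, 0, 2, 78 and 54 in a second and 35, 53, 42 and 31 in the third. In neutrophils, where the members stand for free RNA, 1 of 9 tested members was called higher, beside 7% of all genes called higher and 9.27% called in either direction. Ighd was at 0.00307, 0.00836, 0.0329 and 0.0182 per 10000 (2.17 ± 0.50, SE, adjusted p = 0.0273, edgeR), and the call was lost without vehicle 1 (1.54, adjusted p = 0.0798) or PM 1 (1.59, adjusted p = 0.0691, edgeR). The libraries held 111, 249, 855 and 381 mature B cells, in the same order as the free Ighd, and B cell markers in neutrophils summed to 0.0276, 0.0826, 0.148 and 0.106 per 10000. Whether the free Ighd came from these cells was not tested. Iglc2, at 0.0167, 0.0204, 0.0460 and 0.124, was not called (2.06 ± 0.50, adjusted p = 0.0669, edgeR).

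Genes that work with the antibody chains were read from the same fits, as lists of 20 genes of B cell receptor signalling, 30 genes of antibody folding and secretion, of which 29 are in the files, and 14 genes of class switch and antibody transport. In plasma cells 0 of 29 folding and secretion genes were called and the median of their log2 fold changes was 0.03, and in myeloma cells 0 of 28, with a median of −0.17, beside medians over all genes of −1.2e-05 and 6.4e-05. Over all genes, 0% were called in plasma cells and 0.347% in myeloma cells. In mature B cells 3 of 20 receptor signalling genes were called, beside 1.55% of all genes called in either direction. Their median was −0.18 beside −0.0028 over all genes. Cr2, the complement receptor of B cells, rose by 0.57 ± 0.15 (SE, adjusted p = 0.0223, edgeR). Dapp1, an adaptor, was at −0.77 ± 0.21 (adjusted p = 0.0398) and Blk, a Src family kinase, at −0.60 ± 0.17 (adjusted p = 0.050, edgeR). In the same cells 4 of 9 tested neutrophil transcripts were called higher (S100a9, Camp, Elane and Mpo), with sums of 27.6, 25.8, 50.5 and 33.9 per 10000 over the list of 10, none of which was at 0.

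In mature B cells 0 of 25 folding and secretion genes and 0 of 7 genes of class switch and transport were called. Over all genes 3.57% were called in either direction in small pre-B and immature B cells. The share was 3.49% in pro-B and large pre-B cells and 1.02% in pDC. In small pre-B and immature B cells 2 of 17 receptor signalling genes rose, the inhibitory Fc receptor Fcgr2b by 1.59 ± 0.44 (SE, adjusted p = 0.0156, edgeR) and the scaffold Bank1 by 1.25 ± 0.36 (adjusted p = 0.0223, edgeR), and of 17 folding genes the chaperone Calr rose by 0.98 ± 0.24 (adjusted p = 0.00332, edgeR) and Mzb1, a chaperone of IgM assembly, by 1.22 ± 0.24 (adjusted p = 0.000118, edgeR). In pro-B and large pre-B cells the kinase Syk was at −0.95 ± 0.23 (adjusted p = 0.0273, edgeR), the linker Blnk at −1.21 ± 0.24 (adjusted p = 0.00713) and Fcrla at −1.02 ± 0.23 (adjusted p = 0.0192, edgeR), while Bank1 rose, which made 4 calls among 19 tested. Of 25 folding genes there, Hspa5, the chaperone known as BiP, and Calr rose, and Herpud1, Irf4 and Sec11c fell, with a median of 0.40 beside 0.0045 over all genes. Fcmr, the IgM Fc receptor, and Apex1, a base excision repair enzyme, rose among 6 tested genes of class switch and transport. In pDC 1 of 26 folding genes was called, Herpud1 at −0.82 ± 0.17 (adjusted p = 0.00674, edgeR).

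Genes outside the immunoglobulins with the most similar pattern were taken by Pearson's r of log2(CPM + 1) over 88 sums of a class and mouse from 23 classes. The points share libraries and are given as a description. Ighm was closest to Tnfrsf13c, the BAFF receptor (r = 0.92), Chst3 (0.91) and Ly6d (0.89). Ighd was closest to Cd22 (0.93), Fcmr (0.93) and Pax5 (0.90), which are B cell genes. For Igha these were Tnfrsf17, the plasma cell receptor BCMA (0.86), Cacna1s (0.83) and Nuggc (0.82). Jchain had Tnfrsf17 (0.82), Fut1 (0.81) and Kcnmb4os2 (0.81), Ighg2b had Rhpn2 (0.85), Fut1 (0.81) and Mt3 (0.78), and Igkc had Pou2af1, a B cell coactivator (0.84), Gm30211 (0.84) and Mzb1 (0.83).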

How the data were processed

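Bone marrow cells of 4 mice were measured by 10x 3′ single-cell RNA sequencing, with 1 library per mouse. The authors ran Cell Ranger, and they deposited unnormalized counts, as UMIs for each gene in each barcode. The study's methods name build GRCm38, while the submitters' processing notes name GRCm39. The gene identifiers were matched to the GENCODE annotation of GRCm38, which gave the coordinates and sequences here.

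As in the study, cells needed 300 genes or more and no more than 20% of counts from mitochondrial genes. Counts were scaled to 10000 UMIs per cell over all genes and log-transformed, and then immunoglobulin genes (428) were left out. With 2500 variable genes, 30 principal components and 15 neighbors, cells were clustered with scanpy 1.11.5 and leidenalg 0.10.2 (resolution 1, seed 1), without integration. Clusters were named from marker lists (at least 3 raised markers and a margin of 0.4, thresholds set after the clusters were seen). The B cell, plasma cell and pDC clusters were clustered again (2000 variable genes, 20 components, resolution 0.8). The automatic doublet threshold failed, so doublets were called by Scrublet score as 0.8% per 1000 cells of a library, and were kept in the values.

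UMIs were summed per mouse and class and tested by condition alone with edgeR 4.0.16 under R 4.3.3 (filterByExpr, TMM scaling and a robust quasi-likelihood test), and DESeq2 1.42.0 was an alternative. The mouse is the replicate, and the labels do not say whether the mice were handled together. The tests were checked on simulated data with 200 changed genes per class. A log2 change of 1 was recovered for 5.43% of such genes in plasma cells and for 39.8% to 76% in the other classes. For a change of 2 the shares were 65.6% in plasma cells and 89.2% to 96.8% in the other classes. False calls numbered 3 to 44, most of all in neutrophils, and 0 to 3 with no change simulated. Libraries held 69828595 to 109447030 UMIs, and Clopper-Pearson intervals cover counting error only. All members were described in every class, list genes were named where called, and the 3 genes most like 6 members were named among genes with at least 20 CPM in a sum of at least 10 cells. The members, lists and alternatives were chosen with earlier results of these data known.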

Additional observations from a re-analysis of the deposited data

Results flagged for a closer look

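A further 14 cells stood outside every class and drew at least 30% of their UMIs from immunoglobulin genes, 3, 3, 5 and 3 of them in the 4 mice. Of these, 6 were called doublets. No comparison above uses them, and their level is above that of any class other than plasma cells, of which 209 reached 30%.

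Iglc3 moved in opposite directions in 2 neighbouring B cell classes. After PM it was at a log2 fold change of 3.23 in pro-B and large pre-B cells (0, 8, 67 and 33 UMIs) and of −2.93 in small pre-B and immature B cells (55, 698, 9 and 17 UMIs). The difference between the classes was not tested, and 47 of the 67 UMIs of PM 1 in pro-B cells lay in a single cell.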

How the results depend on the processing

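The counts of called members depended on the tool and on single mice. With DESeq2 the number called was 1 in small pre-B and immature B cells (2 in the fit reported), 0 in pro-B and large pre-B cells (2, neither given an adjusted p by DESeq2), 1 in plasma cells (0), 1 in myeloma cells (0), 0 in pDC (1) and 2 in neutrophils (1). Without a filter on low counts it was 1 in small pre-B, plasma and myeloma cells and 2 in neutrophils. Leaving out each mouse in turn gave 0 to 2 called members in mature B cells, 0 to 3 in small pre-B, 1 to 2 in pro-B, 0 to 3 in plasma, 1 to 2 in myeloma cells, 1 in pDC and 0 to 6 in neutrophils, where the lone mouse of a group is assumed to vary like the others. With 1 mouse left out the share of plasma cells led by Igha differed between PM and vehicle (PM minus vehicle) by −20.3 to 0.674 percentage points. The Igha change in plasma cells ran from −0.87 to 0.080 on the log2 scale. Ighd in mature B cells turned to −0.0080 at resolution 2. The cause was not tested in any of these cases. Over all genes, calls ranged with the setting from 9 to 128 in mature B cells (123 as reported), 0 to 102 in small pre-B (94), 40 to 428 in pro-B (283), 0 to 222 in plasma (0), 9 to 171 in myeloma cells (29), 13 to 154 in pDC (75) and 749 to 1648 in neutrophils (1046).

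The mice carry the numbers 1 and 2 in each group, but same-numbered sums did not deviate together (correlations of −0.118 to 0.137 over the 7 classes), so the numbers were not taken as a pairing. With a replicate block 1 member was called in plasma cells, 1 in myeloma cells and 2 in neutrophils. The share of all genes called with the block is not given beside these counts, so they are not read as a result about the members. With crossed numbers, an alternative chosen after seeing the data, 3 members and 1236 genes were called in neutrophils.

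Shares of cells with a UMI depend on depth. Thinned to 1000 and to 2000 UMIs per cell they were 84.4% and 97.2% for Ighm in pDC, 79.8% and 92.5% for Ighd in mature B cells, 7.53% and 13.8% for Ighm in neutrophils, 12.4% and 19.5% for Igkc in neutrophils, and 32.8% and 41.3% for Jchain in myeloma cells, and 97.1% at 1000 for Ighm in mature B cells. Igkc in plasma cells was at 2714 per 10000 without called doublets. Without called doublets, an alternative chosen after seeing the data, the Jchain difference between Igha-led and Ighg-led plasma cells was 86.7 per 1000 heavy chain UMIs. Without 1 mouse it was 108 to 128, and 377 to 431 per 10000 UMIs. The alternative values that answer a comparison were either counts of called members or levels and shares. Counts within 1.5-fold were taken as kept, whichever members were called and in whichever direction. Levels and shares were kept if they moved by less than the spread between mice. By these rules 90 were kept, 20 counts were larger, 10 counts were smaller, 13 values moved further and 1 reversed. For single genes 180 kept their direction and side of the threshold, 18 became stronger, 20 weaker and 2 reversed.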
